A study of Mus musculus with 16 samples.

Results

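Glycolysis breaks glucose down to pyruvate in the cytosol, and this report describes 10 of its genes in mouse splenic B cells: the glucose transporter Slc2a1, the hexokinases Hk1 and Hk2, the isomerase Gpi1, the phosphofructokinases Pfkl and Pfkp, the aldolase Aldoa, the phosphoglycerate kinase Pgk1, the pyruvate kinase Pkm and the lactate dehydrogenase Ldha. They were chosen by symbol, as a list of the genes of glucose entry and of the main steps of the pathway, and matched 11 of the 27928 genes in the table, because the symbol Aldoa stands on 2 rows. The second Aldoa row (ENSMUSG00000114515.2) held at most 3.81 normalized counts in any library and was below the filter on low values, so 10 genes were tested.

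RNA was sequenced from splenic B cells of 2 subsets, follicular (FO) and marginal zone (MZ), of adult mice of strain C57BL/6, 2 libraries in each of 4 groups. FO B cells recirculate through the follicles, and MZ B cells line the marginal sinus of the spleen and answer blood-borne antigen quickly. B cells were enriched from spleen by negative selection and sorted as CD21lo CD23hi (FO) or CD21hi CD23lo (MZ). WT mice carried no floxed allele, and cKO mice were Gtf2i fl/fl with a conditional deletion in B cells of Gtf2i, the gene of the transcription factor TFII-I. The labels name no treatment of the sorted cells. The labels do not say whether the 2 libraries of a group came from separate animals, so p-values measure the spread between these libraries, which may be technical.

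The libraries held 21546552 to 25083552 reads on genes. The sort was visible in the sorting genes: Cr2 (CD21) lay between 22942 and 26803 normalized counts in FO and between 86953 and 97087 in MZ B cells, and Fcer2a (CD23) between 24802 and 41973 in FO and between 3069.5 and 6708 in MZ. Gtf2i, counted over the whole gene, was at 2039.8 and 1992 in FO B cells of WT, 1523 and 1531 in those of cKO, 2864 and 2471 in MZ B cells of WT, and 1782 and 1889 in those of cKO, lower in every cKO library than in the WT libraries of its subset. A count over the whole gene does not separate a deleted part from the rest, so these values do not measure how complete the deletion was. The paper reports the deletion in B cells from DNA, mRNA and protein. Sex-linked transcripts also differed between the genotypes, and the cKO mice differed from WT in the alleles used for the deletion, so the effects of Gtf2i loss, of sex and of those alleles cannot be told apart in these groups. The library of cKO MZ replicate 1 stood apart, with 14601 summed normalized counts of 9 erythroid genes against at most 1100.1 in any other library, and 2093 of 13 granulocyte genes against at most 137.

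In glycolysis, SLC2A1 carries glucose into the cell, hexokinases trap it as glucose 6-phosphate, phosphofructokinases commit it to breakdown, and the later enzymes draw ATP from it, with pyruvate kinase making pyruvate and lactate dehydrogenase A turning pyruvate into lactate. Resting B cells use little glucose and raise its uptake when they are activated, under factors that include MYC and hypoxia-inducible factor (HIF). Both factors bind short DNA words: HIF a core of ACGTG, MYC and its relatives the E-box CACGTG, which contains ACGTG. All 10 genes had a promoter in RefSeq (GRCm38.p6, 250 bases before to 50 after each start, 15 promoters in all). ACGTG was found on either strand in 8 of these 15 promoters, of 7 of the 10 genes, and CACGTG in 1, whereas ACGTG was found in 19.6% and CACGTG in 7.15% of 32851 mouse promoters. The pair of Aldoa promoters among the 8 overlap and share a single match, which is counted in both. Gpi1, Pfkl and Pfkp had no match, whereas Slc2a1, Hk1 and Aldoa, whose FO to MZ differences did not pass below, had matches. The 15 promoters held 51.3% to 67.3% G and C, and the base composition of all promoters was not compared. Whether these shares exceed those of like promoters was therefore not tested. The promoters of Hk2 and Pgk1 are shown because these 2 genes differed most between FO and MZ B cells, and that of the upstream start of Ldha, chosen after the counts were seen, because it holds the most matches. Capitals mark ACGTG or its reverse complement CACGT, and runs of both where they overlap. A match is a run of letters, and binding there was not measured.
Hk2, chr6:82774405-82774704, minus strand: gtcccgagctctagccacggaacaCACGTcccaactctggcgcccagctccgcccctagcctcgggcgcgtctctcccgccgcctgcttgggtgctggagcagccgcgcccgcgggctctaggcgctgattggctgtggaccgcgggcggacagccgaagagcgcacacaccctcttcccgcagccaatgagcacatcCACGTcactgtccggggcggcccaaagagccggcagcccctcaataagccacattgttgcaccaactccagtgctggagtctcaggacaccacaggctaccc
Pgk1, chrX:106186850-106187149, plus strand: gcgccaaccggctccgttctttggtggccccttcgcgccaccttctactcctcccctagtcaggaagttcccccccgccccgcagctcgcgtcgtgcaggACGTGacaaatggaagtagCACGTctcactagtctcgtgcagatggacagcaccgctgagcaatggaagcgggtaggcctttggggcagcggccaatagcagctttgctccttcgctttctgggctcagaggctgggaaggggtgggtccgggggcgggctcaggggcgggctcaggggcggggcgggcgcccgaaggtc
Ldha, chr7:46845554-46845853, plus strand: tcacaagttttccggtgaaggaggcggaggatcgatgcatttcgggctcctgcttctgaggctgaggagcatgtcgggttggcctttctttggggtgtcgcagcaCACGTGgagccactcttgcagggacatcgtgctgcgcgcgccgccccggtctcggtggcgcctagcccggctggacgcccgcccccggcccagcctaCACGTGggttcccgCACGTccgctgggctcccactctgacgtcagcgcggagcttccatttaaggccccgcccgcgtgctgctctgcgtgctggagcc
The Hk2 and Pgk1 promoters each hold 2 matches to ACGTG and none to CACGTG. The Ldha promoter holds 5 matches to ACGTG, 4 of which belong to its 2 copies of CACGTG, since each E-box reads as ACGTG on both strands.

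FO B cells held less RNA of Hk2 and Pgk1 than MZ B cells, and 4 more glycolysis genes differed by smaller steps. Hk2 was 1.83-fold and Pgk1 1.64-fold lower in FO than in MZ over both genotypes. Gpi1, Ldha and Pkm were lower in FO as well, by 1.32-fold, 1.29-fold and 1.24-fold, and Pfkl was 1.23-fold higher in FO. For Slc2a1, Hk1, Pfkp and Aldoa the difference did not pass the test. All p-values of single genes here are Benjamini-Hochberg adjusted over 14761 genes, from limma on log2(normalized count + 1) with the 8 libraries in a single fit. A gene was called where that adjusted p was 0.05 or less and the change 1.5-fold or more. By that rule 2 of the 10 genes were called over both genotypes, both higher in MZ, where 18.4% of all genes tested were called, 10.9% as higher in MZ and 7.45% as higher in FO. At the adjusted p alone 6 of the 10 passed, 5 higher in MZ and 1 in FO, against 33.4% of all genes, 17.1% with MZ and 16.3% with FO higher. In these bulk samples, a lower share of cells that express a gene and less RNA in each cell cannot be told apart.

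**Figure D1:**
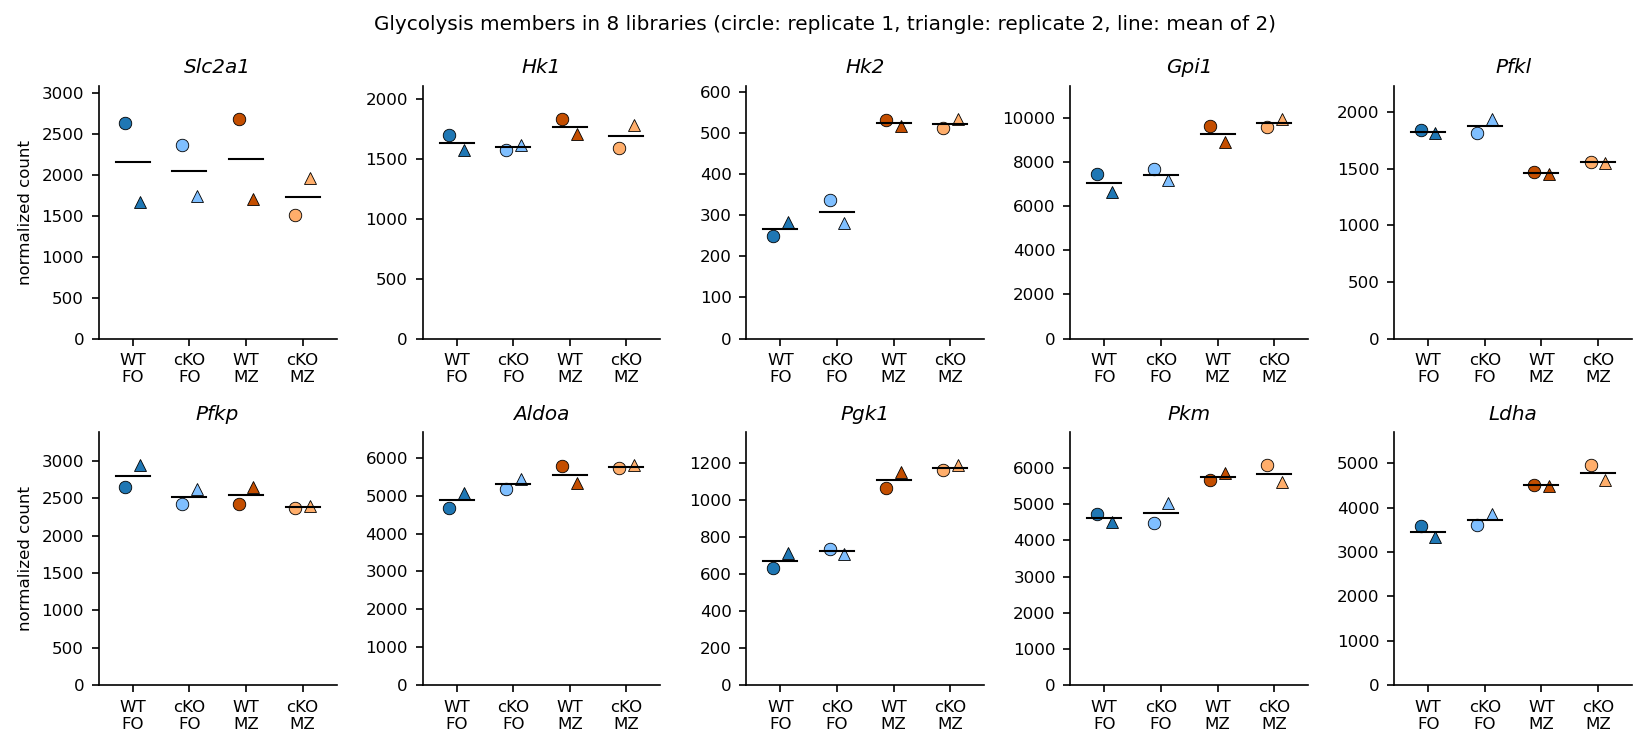
Normalized counts of the 10 glycolysis genes in the 8 libraries, 1 panel a gene, each axis from 0. Circles are replicate 1, triangles replicate 2, and lines the mean of 2. Hk2 lies between 250.5 and 337 in FO and between 512 and 535 in MZ libraries, whereas the libraries of Slc2a1 spread within every group.

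The transporter Slc2a1 (GLUT1; ENSMUSG00000028645.11, 119108711 to 119137983 on chromosome 4 of GRCm38) had 2636 and 1668 normalized counts in FO B cells of WT, 2364 and 1734 in those of cKO, 2680.4 and 1702 in MZ B cells of WT, and 1502 and 1958 in those of cKO. High and low libraries stood side by side in every group, so FO and MZ overlapped. The difference, FO minus MZ over both genotypes, was 0.11 on the log2 scale (SE 0.205, 95% interval -0.37 to 0.58, limma adjusted p = 0.725).

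Hexokinase 1, the form most tissues express throughout (Hk1; ENSMUSG00000037012.18, 62268855 to 62379908 on chromosome 10), had 1698.5 and 1575 normalized counts in FO B cells of WT, 1578 and 1622 in those of cKO, 1837 and 1708 in MZ B cells of WT, and 1597 and 1783 in those of cKO. Its FO and MZ libraries overlapped, with a difference of -0.096 (95% interval -0.25 to 0.060, limma adjusted p = 0.309). Hexokinase 2 is the inducible form (Hk2; ENSMUSG00000000628.10, 82725025 to 82774454 on chromosome 6). It had 250.5 and 284 normalized counts in FO B cells of WT and 337 and 282 in those of cKO. In MZ B cells it had 534 and 517 in WT and 512 and 535 in cKO. Every MZ library was above every FO library, and the 2 MZ libraries of each genotype lay within 1.04-fold of each other. The Hk2 difference over both genotypes was -0.87 (SE 0.097, 95% interval -1.09 to -0.64, limma adjusted p = 0.000469), and it was called in 15 of 15 refits with another pseudocount, filter, scaling, block or tool or with a library left out, with adjusted p from 9.04e-10 to 0.00441.

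Per kilobase of principal transcript, Hk1 made up 86.1% ± 1.72 of the summed Hk1, Hk2 and Hk3 level in FO and 77.4% ± 1.65 in MZ B cells (SD, n = 4 libraries of both genotypes). The Hk2 part was 11.9% ± 1.58 in FO, from 10.1% to 13.9%, and 18.2% ± 0.382 in MZ, from 17.7% to 18.7%. So Hk1 remained the main hexokinase transcript in every library, with a larger Hk2 part in each MZ than in each FO library. With the length of all annotated exons together the Hk2 part was 19.7% in FO and 28.3% in MZ, with the same order.

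Gpi1, which turns glucose 6-phosphate into fructose 6-phosphate (ENSMUSG00000036427.5, 34201330 to 34230336 on chromosome 7), had 7482 and 6651 normalized counts in FO B cells of WT, 7710.1 and 7184 in those of cKO, 9639.9 and 8928 in MZ B cells of WT, and 9617 and 9973 in those of cKO. Its FO and MZ libraries did not overlap, and the difference was -0.40 (SE 0.066, limma adjusted p = 0.00309).

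The phosphofructokinases act as tetramers of 3 kinds of subunit. Pfkl, the liver-type subunit (ENSMUSG00000020277.10, 77986947 to 78010083 on chromosome 10), had 1847 and 1813 normalized counts in FO B cells of WT, 1821 and 1942 in those of cKO, 1475 and 1451 in MZ B cells of WT, and 1561 and 1553 in those of cKO. Every FO library was above every MZ library, with a difference of 0.30 (SE 0.057, limma adjusted p = 0.00555). Pfkp, the platelet-type subunit (ENSMUSG00000021196.14, 6579768 to 6648777 on chromosome 13), had 2658 and 2943 in FO B cells of WT, 2419.6 and 2628 in those of cKO, 2425 and 2658 in MZ B cells of WT, and 2377 and 2404 in those of cKO. Pfkp overlapped between FO and MZ, with a difference of 0.11 (95% interval -0.045 to 0.26, limma adjusted p = 0.247). Per kilobase of principal transcript, Pfkp made up 54.8% ± 2.20 of the 3 phosphofructokinases in FO and 55.7% ± 2.43 in MZ B cells, and Pfkl 42.5% ± 2.15 in FO and 37.9% ± 1.53 in MZ (SD, n = 4). The order of these 2 subunits depends on the length used: with all annotated exons together Pfkl came to 55.3% in FO and 48.2% in MZ, and Pfkp to 39.4% and 39.2%.

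Aldoa, which splits fructose 1,6-bisphosphate (ENSMUSG00000030695.16, 126795234 to 126800751 on chromosome 7), had 4680.4 and 5076 normalized counts in FO B cells of WT, 5171 and 5442 in those of cKO, 5796 and 5328 in MZ B cells of WT, and 5737 and 5802 in those of cKO. The highest FO library was above the lowest MZ library, and the difference of -0.16 (95% interval -0.29 to -0.015) did not pass after adjustment (limma adjusted p = 0.0849). Pgk1, the enzyme of the first ATP-forming step (ENSMUSG00000062070.12, 106187100 to 106203699 on chromosome X), had 632 and 714 in FO B cells of WT, 736 and 711 in those of cKO, 1067 and 1153 in MZ B cells of WT, and 1162 and 1188 in those of cKO. All 4 MZ libraries were above all 4 FO libraries. The Pgk1 difference was -0.71 (SE 0.072, 95% interval -0.88 to -0.54, limma adjusted p = 0.000301), and it was called in the same 15 of 15 refits, with adjusted p from 2.39e-11 to 0.00309. Of the 50-base windows of the principal Pgk1 transcript, 90.2% occur elsewhere in GRCm38, and how the authors' counting treated reads with several matches is not stated, so the Pgk1 level is uncertain. Of 4 pseudogenes that share windows with Pgk1, 3 were in the table and together held at most 15.5 normalized counts. That sum does not settle the Pgk1 level, since reads with several matches may have been left out of the counts.

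Pkm, which makes pyruvate (ENSMUSG00000032294.17, 59656368 to 59679375 on chromosome 9), had 4720.3 and 4509 normalized counts in FO B cells of WT, 4483 and 5029 in those of cKO, 5660.3 and 5866 in MZ B cells of WT, and 6073 and 5615 in those of cKO. Counts per gene do not separate its M1 and M2 forms, which arise from a choice between neighbouring exons. Its FO and MZ libraries did not overlap, with a difference of -0.31 (SE 0.064, limma adjusted p = 0.00791). Ldha (ENSMUSG00000063229.15, 46841475 to 46855627 on chromosome 7) had 3575 and 3339 in FO B cells of WT, 3605 and 3852 in those of cKO, 4512 and 4495 in MZ B cells of WT, and 4952 and 4629 in those of cKO. Ldha too was higher in each MZ than in each FO library, with a difference of -0.37 (SE 0.059, limma adjusted p = 0.00237). Windows found elsewhere in the genome made up 38.3% of the principal transcript of Pkm, 27.3% of Ldha, 19.0% of Gpi1, 12.9% of Aldoa and at most 0.527% of each of the other 5 members. Where the strand setting of the counting is not stated, reads of Pfkp, Gpi1, Slc2a1, Hk1 and Aldoa cannot be told apart from those of genes that overlap their exons on the opposite strand (Pitrm1, Gm26762, Gm12868, Hk1os and Fam57b), nor those of Pkm from Gm49759, which lies in its exons on the same strand.

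In all, the libraries of FO and MZ did not overlap for 6 of the 10 genes, 5 higher in MZ and 1 in FO, where 36.5% of all genes tested did not overlap, 18.6% with MZ higher and 17.9% with FO higher. The median difference of the 10 genes was -0.23, beside 0.0045 over all genes.

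Within WT, the same 2 genes were called, Hk2 at -0.98 (SE 0.137, limma adjusted p = 0.00327) and Pgk1 at -0.72 (SE 0.102, limma adjusted p = 0.00329), where 12.0% of all genes were called. Within cKO, Hk2 differed by -0.76 (limma adjusted p = 0.00802) and Pgk1 by -0.70 (limma adjusted p = 0.00327), where 13.7% of all genes were called. At the adjusted p alone 6 of the 10 passed in WT (Hk2, Gpi1, Pfkl, Pgk1, Pkm and Ldha), against 16.9% of all genes, and 4 in cKO (Hk2, Gpi1, Pgk1 and Ldha), against 19.6%. In cKO, Pfkl and Pkm were just outside, at adjusted p of 0.0504 and 0.0547 by limma. These counts within a genotype rest on single libraries. The Hk2 call in cKO was lost without cKO MZ replicate 1 (limma adjusted p = 0.0549) or replicate 2 (limma adjusted p = 0.0606). The count of genes that passed in WT fell from 6 to 2 without WT FO replicate 2, WT MZ replicate 1 or WT MZ replicate 2 and to 3 without either cKO MZ library, and that in cKO from 4 to 2 without either cKO FO library and to 1 without either cKO MZ library. Over both genotypes, the count stayed at 6 with each of the 8 libraries left out.

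**Figure D2:**
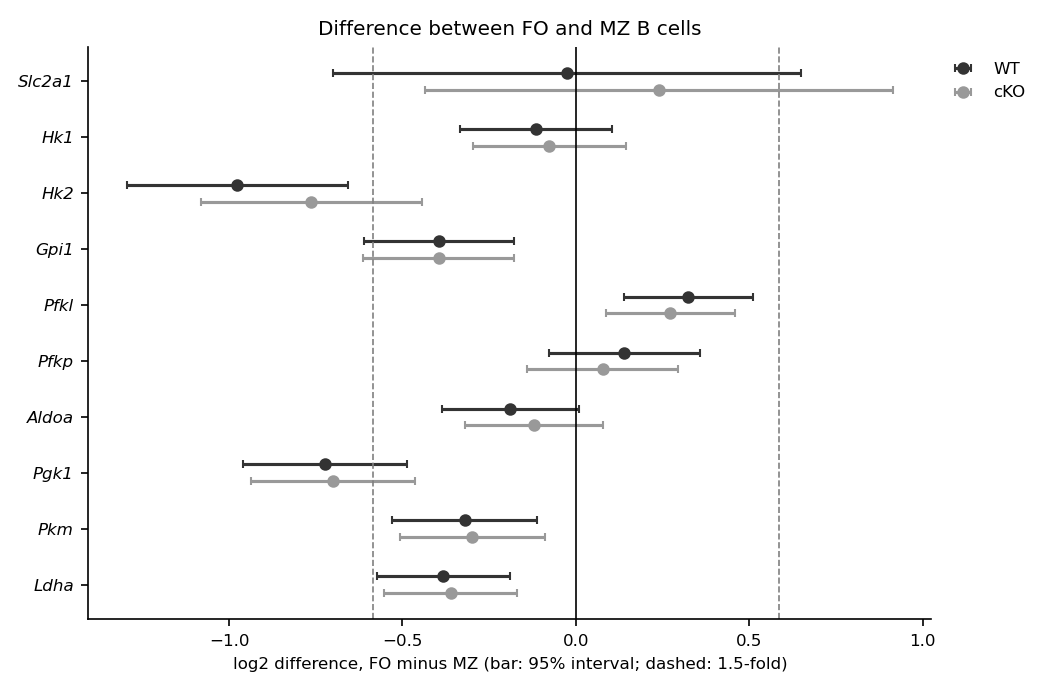
Difference between FO and MZ B cells (log2, FO minus MZ) of each gene in WT (black) and cKO (grey), from limma, with its 95% interval and dashed lines at 1.5-fold. Hk2 (-0.98 in WT and -0.76 in cKO) and Pgk1 (-0.72 and -0.70) lie outside the lines on the MZ side in both genotypes, and Pfkl (0.32 and 0.27) lies on the FO side within them.

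Markers of dividing cells moved with the same contrast. Of the 12 listed markers of cycling cells, 10 were called higher in MZ over both genotypes, against 10.9% of all genes tested. The 12 summed to between 2543 and 3440.2 normalized counts in FO and between 4667 and 11489 in MZ libraries. Among the MZ libraries the sum was 5226 and 11489 in WT and 10040 and 4667 in cKO. Of the 10 macrophage markers, 3 (Spic, Cd68 and Hmox1) were called higher in MZ, against the same 10.9%, and 0 in FO. The list median was -0.73. Adgre1, another of the 10, went the other way without being called, averaging 141 in FO and 88.7 in MZ libraries. The list summed to between 763 and 1356 in FO and between 1019 and 2076 in MZ libraries. The part of either in the glycolysis differences was not tested. Without cKO MZ replicate 1, the library with erythroid and granulocyte RNA, Hk2 and Pgk1 were still called over both genotypes.

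The levels themselves can be ordered per kilobase of principal transcript, an order that depends on the length used. The order may also depend on how reads with several matches were counted, which is not stated. Windows found elsewhere made up 90.2% of Pgk1, 38.3% of Pkm, 27.3% of Ldha, 19.0% of Gpi1 and 12.9% of Aldoa, but 0.0589% of Hk1. The place of Pgk1 in this order, also beside Hk1, is therefore uncertain. In FO B cells Aldoa stood highest at 3287 ± 204 normalized counts per kilobase, followed by Gpi1 at 2516 ± 159, Ldha at 2034 ± 119 and Pkm at 1926 ± 104 (SD, n = 4). After a gap came Slc2a1 at 644 ± 146, Pfkp at 642 ± 51.9, Pfkl at 498 ± 15.8, Pgk1 at 382 ± 24.9, Hk1 at 378 ± 13.5 and Hk2 at 52.3 ± 6.51. Ldha and Pkm, Slc2a1 and Pfkp, and Pgk1 and Hk1 were neighbours that did not differ beyond their spread. In MZ B cells Pgk1 stood at 626 ± 28.7, beside Slc2a1 at 601 ± 158 and Pfkp at 595 ± 31.2, and Hk2 at 95.2 ± 2.09 was still the lowest of the 10. With the length of all annotated exons together, Pfkp came to 199 in FO and 184 in MZ, below Slc2a1 (599 and 559), Pgk1 (311 and 509) and Pfkl (278 and 226), and Pgk1 stood apart from Hk1 (189.6 and 203), while Hk2 was again the lowest (48.3 and 87.9).

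The other genes of the pathway came from a list of 24 further glycolysis enzymes and glucose transporters, of which 15 were tested. Over both genotypes 4 of these 15 were called, 3 higher in MZ and 1 higher in FO. Of all genes tested 18.4% were called, 10.9% as higher in MZ and 7.45% as higher in FO. The list median was -0.17, beside 0.0045 over all genes. Hk3, a hexokinase known from myeloid cells, was 2.50-fold lower in FO (-1.32, limma adjusted p = 0.00304), at 25.2 to 32.3 normalized counts in FO libraries, 62.6 and 64.3 in WT MZ, and 101.7 and 63.9 in cKO MZ, the highest value being in the library with granulocyte RNA. Pfkm, the muscle-type phosphofructokinase, was 2.23-fold lower in FO (-1.16, limma adjusted p = 0.00402), at 66.9 to 121 in FO and 166 to 234 in MZ libraries. Tpi1, the triosephosphate isomerase, was 1.51-fold lower in FO (-0.59, limma adjusted p = 0.00408), a call close to the 1.5-fold cutoff that held in 11 of 15 refits. The transporter Slc2a6 (GLUT6) went the other way: it lay between 542 and 658 in FO and between 104 and 192 in MZ libraries, 3.99-fold higher in FO (limma adjusted p = 0.000212).

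Other genes of that list were not called. Pgam1 passed at the adjusted p alone, with -0.42 (limma adjusted p = 0.0297). The difference was -0.16 for Slc2a3, the neuronal-type transporter GLUT3 (limma adjusted p = 0.0649), -0.12 for Gapdh (limma adjusted p = 0.715) and -0.084 for Eno1 (limma adjusted p = 0.340). Ldhb, the heart-type lactate dehydrogenase, held at most 5.78 normalized counts in any library and was not tested, so that Ldha was the lactate dehydrogenase seen at this depth. Windows found elsewhere in the genome made up 94.4% of Pgam1, 84.1% of Gapdh, 67.8% of Eno1 and 28.1% of Tpi1, so these levels are uncertain in the same way as that of Pgk1.

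**Figure D3:**
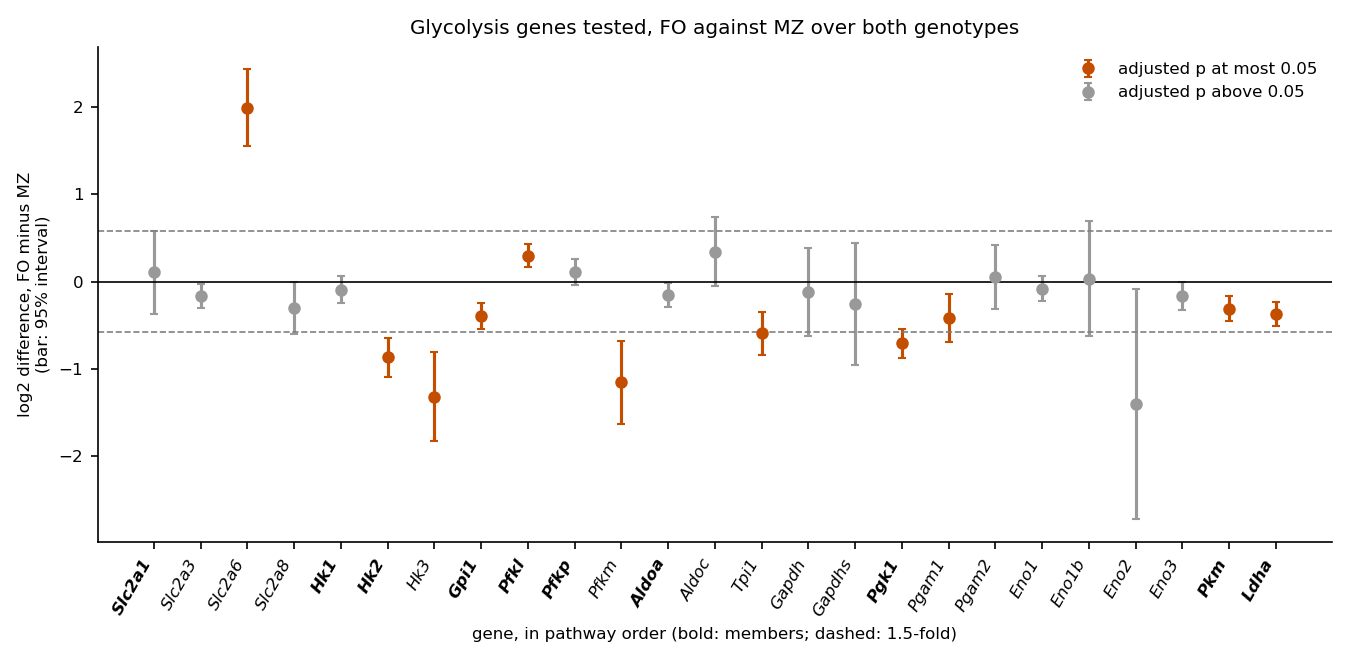
Difference between FO and MZ B cells over both genotypes (log2, FO minus MZ, with its 95% interval) for the 25 glycolysis genes tested, in the order of the pathway, the 10 described here in bold, coloured where the limma adjusted p was at most 0.05, with dashed lines at 1.5-fold. Points below the lines are Hk2 (-0.87), Hk3 (-1.32), Pfkm (-1.16), Tpi1 (-0.59), Pgk1 (-0.71) and Eno2, whose wide interval did not pass, and Slc2a6 (3.99-fold) stands alone above them.

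In the branches that leave glycolysis, called genes were counted over both genotypes, where 18.4% of all genes were called. Of 17 tested genes of pyruvate and lactate handling, Pdp1, a phosphatase that activates pyruvate dehydrogenase, was higher in FO (1.22, limma adjusted p = 0.00126), and Pcx, the pyruvate carboxylase, lower in FO (-0.80, limma adjusted p = 0.0134). Of 8 tested genes of the pentose phosphate pathway, which makes NADPH and ribose, H6pd was called lower in FO (-0.59, limma adjusted p = 0.0174), in 8 of 15 refits. None of 7 tested genes of fructose bisphosphate control and gluconeogenesis was called over both genotypes, although Pck2 was called within cKO, while Pck2 (0.57) and Pfkfb4 (0.36) passed at the adjusted p alone as higher in FO, with limma adjusted p of 0.00149 and 0.00403.

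Of 14 tested regulators of glycolysis genes and glucose entry, 1 was called over both genotypes, where 18.4% of all genes were called. Myc, which raises transcription of many glycolysis genes, was 3.05-fold lower in FO (-1.61, limma adjusted p = 0.00153), at 7652 and 5852 normalized counts in FO B cells of WT, 12451 and 7712 in those of cKO, 31481 and 17298 in MZ B cells of WT, and 22683 and 30145 in those of cKO. FO and MZ did not overlap for Myc. Hif1a, the oxygen-regulated subunit of HIF, lay between 2419 and 2599.9 in all 8 libraries (-0.0021, 95% interval -0.13 to 0.13, limma adjusted p = 0.982). Txnip, which holds back glucose uptake and rises with glucose, had 42356 and 16721 in FO B cells of WT, 31929 and 30327 in those of cKO, 24561 and 9495 in MZ B cells of WT, and 13908 and 19945.5 in those of cKO, with a difference of 0.85 that did not pass (limma adjusted p = 0.111).

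Of 14 tested targets of HIF outside glycolysis, 5 were called higher in FO and 2 higher in MZ over both genotypes, where 7.45% and 10.9% of all genes were called. The list median was 0.51, beside 0.0045 over all genes. Ndrg1, a stress-responsive gene, was 9.11-fold higher in FO (3.19, limma adjusted p = 0.000126), at 152 to 355 normalized counts in FO and 18.9 to 27.9 in MZ libraries. The histone demethylase Kdm3a (0.62, limma adjusted p = 0.000418), the mitophagy gene Bnip3 (0.96, limma adjusted p = 0.00657) and the MYC antagonist Mxi1 (0.79, limma adjusted p = 0.00680) were higher in FO too. Car9, a carbonic anhydrase, was lower in FO (-1.89, limma adjusted p = 0.000914), at 6.99 to 14.6 in FO and 34.7 to 46.4 in MZ libraries, and so was the oxidoreductase Ero1l (-0.60, limma adjusted p = 0.00122). Whether this list differs from the glycolysis genes was not tested.

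Deletion of Gtf2i was not followed by a detected change in any of the 10 genes. In cKO against WT, 0 of 10 were called in MZ, in FO and over both subsets by limma, by edgeR and by DESeq2, and 0 of 10 had an unadjusted p under 0.05 by limma, where 0.0339%, 0.0677% and 0.108% of all genes were called in the 3 comparisons. Over all genes, 596 had an unadjusted p under 0.05 in MZ, 382 in FO and 978 over both subsets. The differences, cKO minus WT over both subsets, ran from -0.18 for Slc2a1 to 0.10 for Hk2, with limma adjusted p of 0.820 to 0.953. The median of the 10 was 0.071, beside -0.012 over all genes.

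With only these libraries a moderate change could be missed, and the intervals say how large it could be. Hk2 differed by -0.0046 between cKO and WT in MZ B cells (95% interval -0.32 to 0.31) and by 0.21 in FO B cells (-0.11 to 0.53). Pgk1 differed by 0.083 in MZ (-0.15 to 0.32) and 0.11 in FO (-0.13 to 0.34), and Ldha by 0.088 in MZ (-0.10 to 0.28) and 0.11 in FO (-0.083 to 0.30). For 9 of the 10 genes the intervals in both subsets stayed inside 1.5-fold in either direction. The exception was Slc2a1, with -0.32 in MZ (-0.99 to 0.36) and -0.050 in FO (-0.73 to 0.62).

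**Figure D4:**
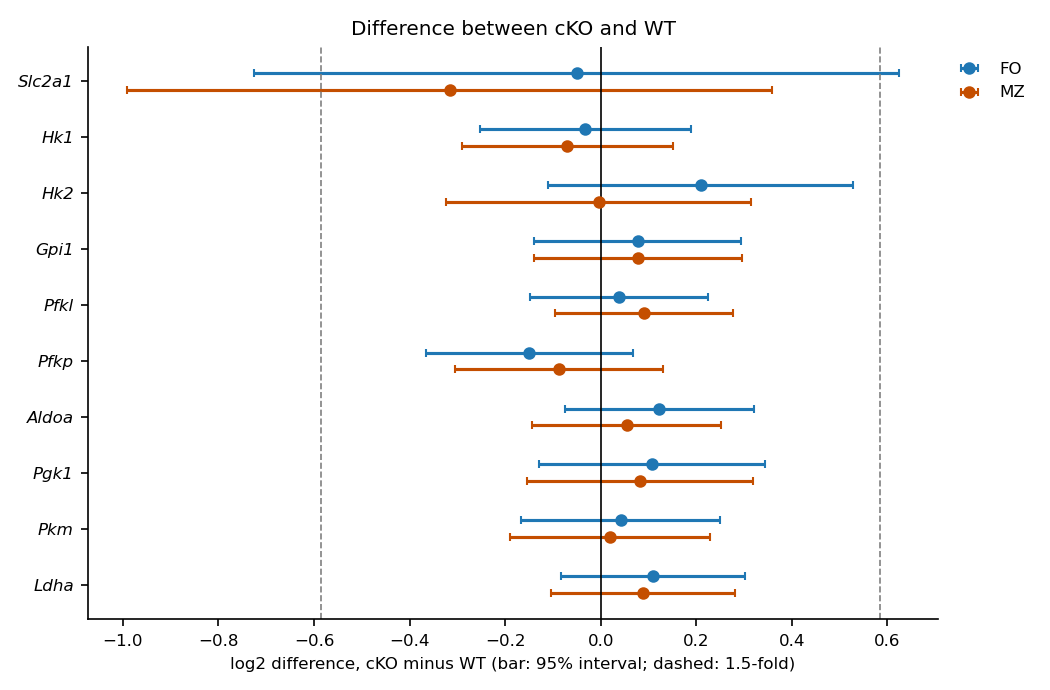
Difference between cKO and WT (log2, cKO minus WT) of each gene in FO (blue) and MZ (orange) B cells, from limma, with its 95% interval and dashed lines at 1.5-fold. All 20 intervals hold 0, and those of Slc2a1 alone reach past the lines.

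For 4 of the 10 genes the libraries of the genotypes did not overlap in MZ B cells, Pfkl, Pgk1 and Ldha with cKO higher and Pfkp with cKO lower, where 34.5% of all genes did not overlap, 15.8% with cKO higher and 18.7% with cKO lower. In FO B cells this held for 3 genes, Aldoa and Ldha with cKO higher and Pfkp with cKO lower, against 24.0% of all genes, 10.9% with cKO higher and 13.1% with cKO lower. With both subsets pooled it held for none of the 10, against 2.09%. The share of members was thus near that of all genes in each subset.

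Whether the FO to MZ difference itself depended on genotype was tested by the interaction. The 10 values (difference in cKO minus difference in WT) ran from -0.062 to 0.27, with limma adjusted p of 1.00 for each, and 0 genes of 14761 were called, which is 0.0%, while 94 had an unadjusted p under 0.05. The 95% intervals reached from -0.69 to 1.22, both limits from Slc2a1. None of the genes in the pathway, regulator and HIF target lists was called between cKO and WT in MZ, in FO or over both subsets by limma.

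Slc2a1 varied more between libraries of a group than any other member. Its 2 libraries differed 1.58-fold in WT FO, 1.57-fold in WT MZ, 1.36-fold in cKO FO and 1.30-fold in cKO MZ B cells, whereas no other member differed by more than 1.20-fold. Replicate 1 was the higher in 3 groups and the lower in cKO MZ. Such a split was not particular to Slc2a1. Deviations from the group means correlated with those of Slc2a1 at 0.96 for Pdp1, 0.94 for Myc and 0.92 for Txnip. They correlated at -0.89 for Taldo1 and -0.84 for Tpi1. Over all 14761 genes, the deviations of replicate 1 correlated at 0.59 between WT FO and WT MZ. Values are given for 2 of the genes that split in a like way, chosen after their values were seen. P4ha1, a collagen prolyl hydroxylase and HIF target, had 950.0 and 341 normalized counts in FO B cells of WT, 1262 and 392 in those of cKO, 821 and 354 in MZ B cells of WT, and 438 and 465 in those of cKO. Egln2, an oxygen-sensing prolyl hydroxylase that marks HIF for removal, had 4700.3 and 3301 in FO B cells of WT, 4222 and 3356 in those of cKO, 4263 and 2958 in MZ B cells of WT, and 2881.5 and 2886 in those of cKO. Over the 8 libraries the log2 values of Slc2a1 correlated with those of Egln2 at r = 0.89 and of P4ha1 at r = 0.87, a description over libraries that share depth and handling.

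**Figure D5:**
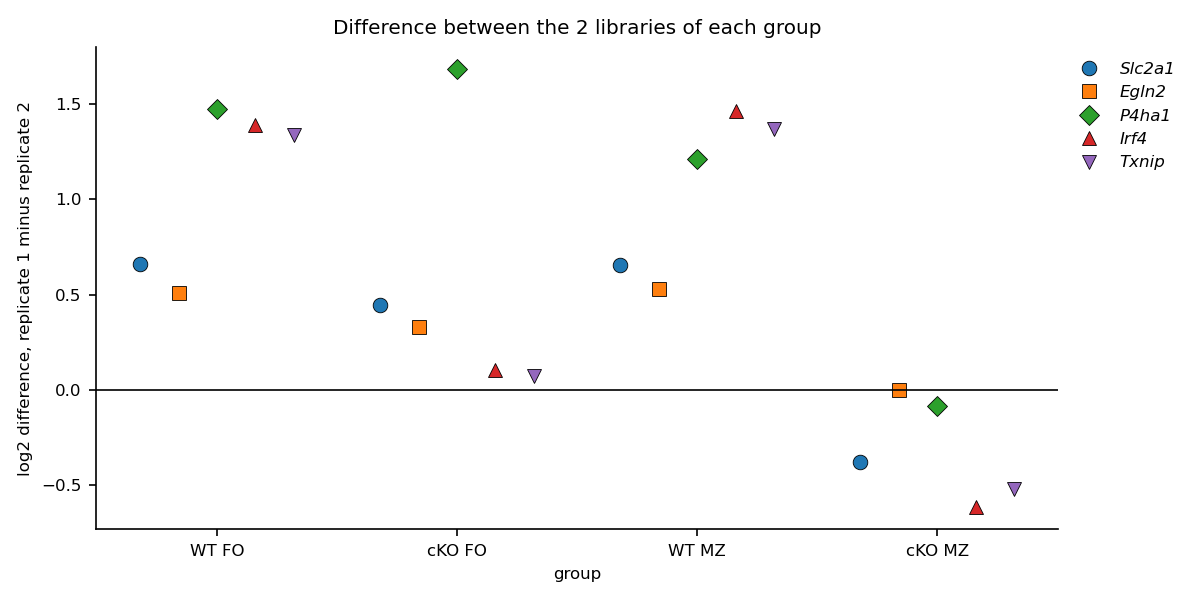
Difference between the 2 libraries of each group (log2, replicate 1 minus replicate 2) for Slc2a1 and 4 genes chosen after their values were seen, with a line at 0. Slc2a1, Egln2 and P4ha1 are above 0 in WT FO, cKO FO and WT MZ, and Slc2a1 is below 0 in cKO MZ.

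The members that passed between FO and MZ correlated over the 8 libraries, which rests on that contrast. Hk2 and Pgk1 correlated at r = 0.98, Pkm and Ldha at 0.97, and Hk2 and Pfkl at -0.94. Of the members that did not pass, Aldoa correlated with Hk2 at 0.82, with Pgk1 at 0.81 and with Hk1 at 0.39. Pfkp correlated with Gpi1 at -0.77, with Pfkl at 0.43 and with Hk1 at -0.34. Hk1 correlated with Gpi1 at 0.65 and with Pgk1 at 0.50, and Slc2a1 with Hk2 at -0.16 and with Pgk1 at -0.30. The 5 genes most like the mean standardized profile of the members, among 9214 genes with a range of at least 1.5-fold, were Gm10110, St3gal2, Fgd2, Abr and Traf1, with r from 0.987 to 0.992 over the 8 libraries. St3gal2, a sialyltransferase, lay between 503 and 614 normalized counts in FO and between 1015 and 1356 in MZ libraries, and Traf1, an adaptor of tumour necrosis factor receptors, between 1448 and 1967 in FO. Such a profile separates FO from MZ libraries, as the sort does.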

How the data were processed

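RNA of sorted FO and MZ B cells, 2 libraries for each genotype and subset, was sequenced as 50-base single-end reads after depletion of ribosomal RNA. Per the labels and the methods of the study, reads were aligned with HISAT2 to mm10, counted with featureCounts and HTSeq and normalized with DESeq2. The deposited signal is a normalized count, the reads of a gene over the size factor of its library. Whether strand was used and how reads with several matches were counted are not given in the sources used here. Whole reads were recovered for 100% of values (within 0.001), and 256343 blank lines were left out. Of 27928 identifiers, 27872 were found in GENCODE M21 (GRCm38), which gave coordinates and lengths. The libraries held 21546552 to 25083552 reads on genes. How much of the spread between libraries is counting error was not computed.

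Log2(normalized count + 1) of 8 libraries in 4 groups was fitted for 14761 genes, those averaging 10 normalized counts or more, by limma 3.58.1 (R 4.3.3; lmFit and eBayes with trend). The pseudocount understates the change of low genes. A call needed a Benjamini-Hochberg adjusted p of 0.05 or less and a change of 1.5-fold or more, and "passed" means the adjusted p alone. Intervals are limma's 95% intervals of single genes. "Over both genotypes" and "over both subsets" are means of the 2 differences. With 2 libraries a group an exact test of a single gene cannot reach the threshold. Alternatives were a pseudocount of 0.5, no filter, quantile normalization, only the 4 libraries compared, a replicate block, edgeR 4.0.16 (quasi-likelihood, TMM) and DESeq2 1.42.0 on recovered reads, no fold cutoff, 2-fold, and each library left out. A block with the cKO MZ numbers exchanged and lengths of all annotated exons were added after seeing the data. In simulated FO against MZ data over both genotypes (14761 genes), limma called 66 of 100 genes changed 2-fold, 25 of 100 changed 1.5-fold and 5 unchanged genes. No other genes were changed there, whereas 33.4% of all genes passed in the data, and a 1.5-fold change lies on the cutoff. These rates therefore need not hold for the data.

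Named were all members, list genes called over both genotypes or subsets (at most 6 a list, smallest p first), Gapdh, Tpi1, Eno1, Pgam1, Ldhb, Slc2a3, Hk3, Pfkm, Hif1a, Myc and Txnip, the label checks Gtf2i, Cr2 and Fcer2a, and the 5 most similar profiles. Other named genes were chosen after their values were seen. Members and lists were chosen with earlier results of these data known. The 8 ATAC-seq samples were not analysed here, and results for some items are not reported here.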

Additional observations from a re-analysis of the deposited data

How the results depend on the processing

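Over both genotypes 2 members were called under every refit that kept the 1.5-fold cutoff, and 6 or 7 passed at the adjusted p alone. Without a fold cutoff, 6, 4 and 6 members were called in WT, in cKO and over both, and 4926 of all genes over both. At 2-fold 0, 0 and 0 members were called, with 1325 of all genes in cKO and 1647 over both. A fit of only the 4 libraries compared left 2 members at the adjusted p in WT, with 1014 of all genes called there and 4 in cKO against WT in FO. DESeq2 called 48, 25 and 69 of all genes in cKO against WT in MZ, in FO and over both subsets, against 5, 10 and 16 by limma. The cause of these shifts beyond fewer libraries or another cutoff was not tested.

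With each library left out, the members called stayed at 2 in WT and over both and ranged from 1 to 2 in cKO, and members at the adjusted p from 2 to 5 in WT and 1 to 4 in cKO. All genes called ranged from 1220 to 1628 in WT, 1073 to 2119 in cKO, and, for cKO against WT, from 4 to 11 in FO and 8 to 17 over both subsets, lowest at 8 without cKO MZ replicate 1. Small differences changed sign. For Slc2a1 they ranged from -0.36 to 0.30 in WT and -0.059 to 0.27 over both genotypes, and between genotypes from -0.64 to 0.011 in MZ and -0.38 to 0.28 in FO. For Hk1 they ranged from -0.16 to 0.0024 (FO against MZ in cKO), and between genotypes from -0.15 to 0.0095 in MZ and -0.087 to 0.023 in FO. Between genotypes in MZ, Hk2 ranged from -0.036 to 0.027, Aldoa from -0.0066 to 0.11 and Pkm from -0.037 to 0.076. In FO, Gpi1 ranged from -0.0076 to 0.16, Pfkl from -0.0076 to 0.085 and Pkm from -0.041 to 0.12, and over both subsets Pkm from -0.011 to 0.072. The Hk2 value in MZ was also 0.0027 with quantile normalization, 0.0073 by edgeR and 0.0054 by DESeq2, and Pfkp in cKO was -0.019 with quantile normalization. None of these passed.

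The labels do not say that a replicate number marks a shared animal or batch. Deviations of replicate 1 correlated at 0.59, 0.29 and 0.16 between WT FO, WT MZ and cKO FO, and at -0.0015 to -0.30 with cKO MZ. With the replicate block, 2 members were called in WT, 2 in cKO and 2 over both genotypes, and 1973, 2262 and 2861 of all genes. With the cKO MZ numbers exchanged, 12, 16 and 37 of all genes were called in cKO against WT in MZ, in FO and over both subsets, and 0 members, and 6 members rather than 4 passed at the adjusted p alone in FO against MZ in cKO. The precision at genes with few reads, such as Hk3 and Car9, is also limited by counting error, which was not separated from the spread between libraries.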
